A study of Mus musculus with 18 samples.

Results

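The 35 genes described here are the glycolytic enzymes, their transporters and regulators, and further targets of the transcription factor HIF-1. They were chosen by gene symbol from what is known of these pathways, without a threshold on any measured value. Earlier results of these data were known at that choice, so the shares given beside those of all genes are only a description. All 35 had a row among the 16314 genes of the count table. The filter on low counts left 34 of them among the 12021 genes tested, and Adm, the peptide hormone adrenomedullin, was not tested. Bulk RNA-seq had been performed on bone marrow-derived macrophages (BMDMs) from mice without the gene of prolyl endopeptidase (Prep-/-) and from heterozygous littermates (Prep+/-), all on a C57BL6/J background. The knockout was carried by the whole animal and not by macrophages alone, there was no wild-type group, and mouse ages for these cultures are not given in the sources used here. Femoral marrow was cultured with M-CSF at 50 ng/ml for 7 days. The cells were then left unstimulated (M0), given lipopolysaccharide (LPS) at 50 ng/ml for 24 h (M1), or given IL-4 and IL-13 at 20 ng/ml each for 24 h (M2), with 3 libraries in each of the 6 groups.

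Glycolysis splits glucose into pyruvate, and lactate dehydrogenase turns pyruvate into lactate, which leaves the cell through monocarboxylate transporters. HIF-1 is a pair of proteins, HIF-1α (Hif1a) and ARNT, of which HIF-1α is marked for destruction by prolyl hydroxylases (Egln genes) when oxygen is present. Stabilized HIF-1 binds a short core sequence, the hypoxia response element, and raises most genes of glycolysis along with genes such as Vegfa. Macrophages given LPS are known to raise HIF-1α and glycolysis, whereas those given IL-4 rely more on mitochondria.

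The promoters of 4 of these genes are shown because they carry the opposite patterns described below. Pgk1 and Ldha are textbook HIF-1 targets, P4ha2 had the strongest reduction in Prep-/- cells and Vegfa the strongest increase. They were picked after their values were seen. Each stretch is the 250 bases before the start of a RefSeq transcript (table build GRCm38.p6), was located in GRCm39 by an exact match of the 300-base RefSeq window, and is written 5′ to 3′ on the strand of the gene. Capitals mark the HIF-1 cores ACGTG and GCGTG, or their reverse complements.
Pgk1 (chrX:105230456-105230705, plus strand): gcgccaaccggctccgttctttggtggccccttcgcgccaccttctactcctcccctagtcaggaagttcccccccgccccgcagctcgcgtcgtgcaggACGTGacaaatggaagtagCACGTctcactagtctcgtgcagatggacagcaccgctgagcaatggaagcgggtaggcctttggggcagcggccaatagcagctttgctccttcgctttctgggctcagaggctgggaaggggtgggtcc
Ldha (chr7:46494978-46495227, plus strand): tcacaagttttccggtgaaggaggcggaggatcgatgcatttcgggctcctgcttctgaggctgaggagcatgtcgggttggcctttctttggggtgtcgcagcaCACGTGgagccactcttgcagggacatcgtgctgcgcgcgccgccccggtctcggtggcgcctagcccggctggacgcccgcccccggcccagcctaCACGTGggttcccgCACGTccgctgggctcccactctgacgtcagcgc
P4ha2 (chr11:53991500-53991749, plus strand): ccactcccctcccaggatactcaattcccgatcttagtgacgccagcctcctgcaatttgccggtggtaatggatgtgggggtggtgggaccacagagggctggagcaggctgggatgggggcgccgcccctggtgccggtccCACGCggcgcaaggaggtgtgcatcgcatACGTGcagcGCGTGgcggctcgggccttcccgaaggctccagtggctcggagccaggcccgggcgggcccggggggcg
Vegfa (chr17:46343304-46343553, minus strand): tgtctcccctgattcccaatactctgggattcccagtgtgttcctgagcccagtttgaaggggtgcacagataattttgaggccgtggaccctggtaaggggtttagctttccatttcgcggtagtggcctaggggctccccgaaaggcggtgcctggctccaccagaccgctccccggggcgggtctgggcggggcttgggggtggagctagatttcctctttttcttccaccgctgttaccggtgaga

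The Pgk1 stretch held 2 cores. In Ldha, 5 cores lay in 3 places, because CACGTG holds ACGTG on both strands and also is the E-box of other factors. P4ha2 held 3 cores and Vegfa held 0, which says only that these letters are not in this stretch. The Ldha and P4ha2 starts lie 4329 and 10197 bases inside the outermost start of the gene in GENCODE M39, so longer transcripts begin further upstream. Taking for each gene the window nearest that outermost start (250 bases before and 50 bases after a RefSeq start), 33 of the 35 genes had a window, and 26 of the 33 (78.8%) held ACGTG or GCGTG on either strand. Of all 32851 windows in the table, 43.8% did, and 7.15% held CACGTG, against 5 of the 33 (15.2%).

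The libraries held between 19068237 and 22598279 counts. Prep itself had 638, 739 and 900.0 normalised counts (counts scaled by the TMM factor of each library) in the 3 Prep+/- M0 libraries and 42.2, 42.5 and 31.3 in the Prep-/- M0 libraries. In M1 it had 681, 551 and 663 in Prep+/-, against 35.2, 47.0 and 59.2 in Prep-/-, and in M2 799, 810.4 and 851 in Prep+/-, against 68.1, 50.8 and 60.9 in Prep-/-. All 9 Prep-/- libraries lay below all 9 Prep+/- libraries. Summed markers of macrophages lay between 3791 and 9882 CPM (counts scaled to a common library total) in every library, at 4690 to 8656 CPM in Prep-/- M0 and 3898 to 4642 CPM in Prep+/- M0. The sums of B cell, erythroid and dendritic cell markers reached at most 12.0, 3.73 and 2.54 CPM. Their ranges in Prep-/- M0 (9.78 to 12.0, 2.03 to 3.73 and 0.969 to 1.53 CPM) lay above those in Prep+/- M0 (3.59 to 5.51, 0.461 to 1.21 and 0.240 to 0.577 CPM). Pax5, Alas2 and Car1 were not analysed here. Of the 5 T cell markers 2 were analysed, Cd3d and Cd4, and their sum was 7.84 to 30.9 CPM in Prep-/- M0 against 0.876 to 1.15 CPM in Prep+/- M0. Granulocyte precursor markers summed to 40.7 to 85.4 CPM in Prep-/- M0 and 19.7 to 30.0 CPM in Prep+/- M0. Stromal markers reached at most 18.6 CPM and hepatocyte markers at most 13.8 CPM. The part of these markers in the results was not tested.

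In Prep-/- M2 cells, replicate 3 stood apart from its group. It was the highest of the 3 libraries for 25 of the 34 genes tested, with a median of 1.47 times the mean of the other two, whereas it was highest for 43.4% of all genes with a mean above 50 counts. Its erythroid and B cell marker sums, 0.231 and 0.925 CPM, were also the lowest of the group. Prep+/- M2 replicate 3 was highest for 24 of the 34 genes, by a median of 1.09 times. In M0, Prep-/- replicate 3 differed most from its group, with 0.784 CPM of stromal markers against 14.8 and 18.6 CPM in the other two and the 13.8 CPM of hepatocyte markers. Stromal markers also split Prep+/- M2, at 15.8 CPM in replicate 3 and at most 0.461 CPM in the other two. For the 34 genes tested, calls in M2 that were gained or lost without Prep-/- M2 replicate 3 are given with and without it. Calls of other genes in M2 are given only with all libraries, and may depend on it. The study calls the libraries of a group biological replicates, but the sources used here do not say whether they came from separate mice or cultures. The p-values therefore measure the spread between libraries within groups, which may be technical. That spread was estimated for each gene over all 6 groups together, not from the compared groups alone. In bulk RNA, fewer cells of a type and less RNA per cell cannot be told apart.

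**Figure D1:**
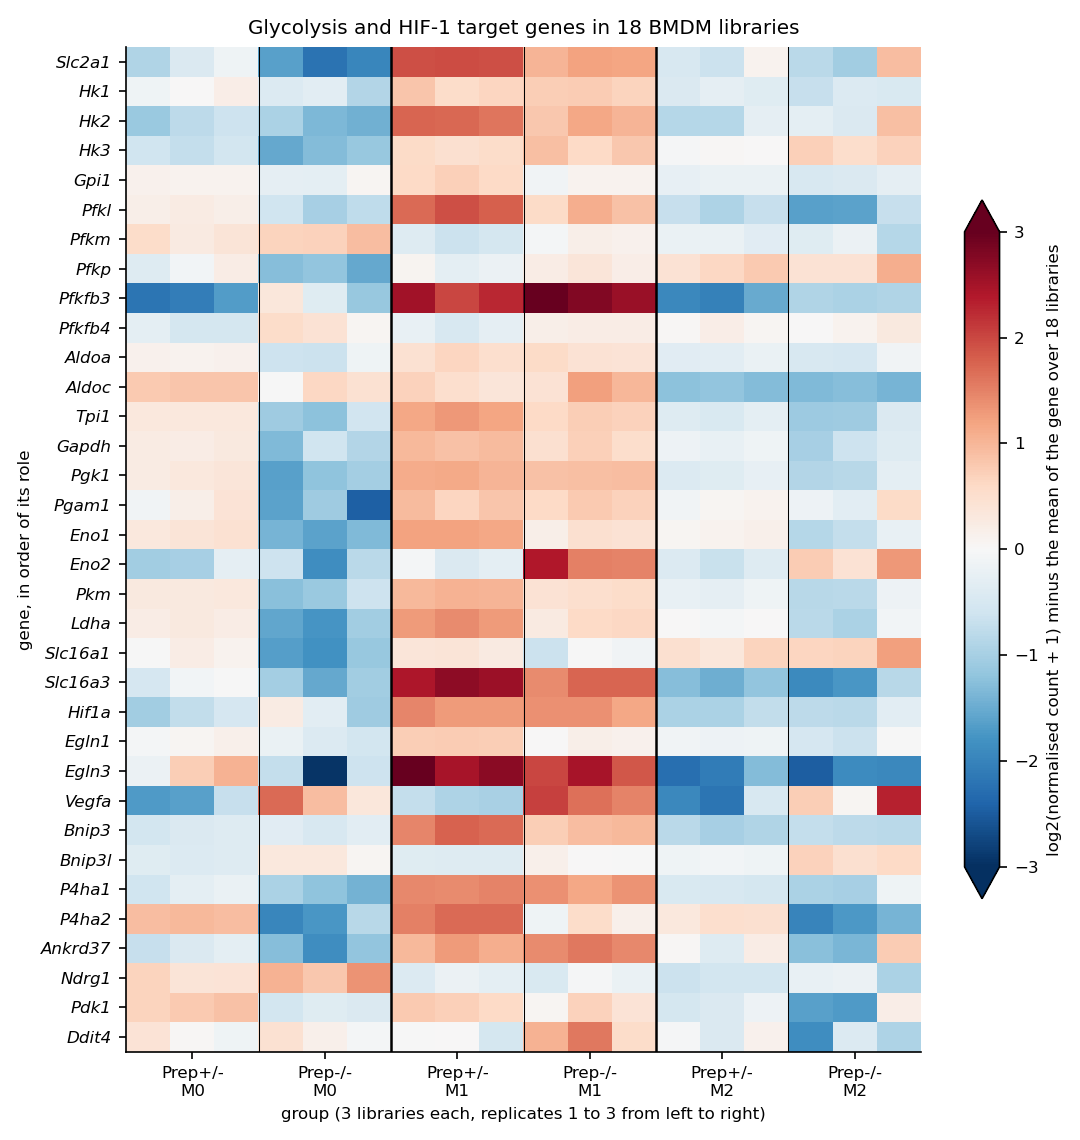
Each row is a gene and each column a library, grouped by state and genotype; colour gives log2(normalised count + 1) minus the mean of the gene over the 18 libraries. Many glycolytic genes are lowest in Prep-/- M0 and highest in Prep+/- M1, Vegfa is high in the Prep-/- groups, and replicate 3 of Prep-/- M2 is redder (higher) than its neighbours for many genes.

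Most enzymes of lower glycolysis were lower in unstimulated Prep-/- macrophages than in Prep+/- macrophages. A gene was called a differentially expressed gene (DEG) at an adjusted p under 0.05 with a fold change over 1.5 in edgeR's quasi-likelihood test. In M0, 17 of the 34 genes were lower in Prep-/- (50.0%, against 17.2% of all 12021 genes) and 5 were higher (14.7%, against 15.4%). Their median log2 fold change was -0.76, where that of all genes was 0.02. Without Prep-/- M0 replicate 3, 18 were lower and 5 higher, with a median of -0.78 where all genes had 0.02. In M1, 8 were lower and 4 higher (23.5% and 11.8%, against 10.2% and 12.3% of all genes), with a median of -0.17 where all genes had 0.04. The M1 counts depended on the fit. With DESeq2, 10 were lower and 3 higher (median -0.20, all genes 0.00). With only the M1 libraries in the fit, 11 were lower and 4 higher (median -0.19, all genes 0.02). In M2, 2 were lower and 6 higher (5.88% and 17.6%, against 9.82% and 6.37% of all genes), with a median of -0.13 where all genes had 0.03. Without Prep-/- M2 replicate 3, however, 10 genes were lower and 5 higher in M2 (against 13.4% and 8.22% of all genes), and the median was -0.25. The 3 comparisons share no libraries. Across the 3 states Vegfa was higher in each and Eno1 and P4ha2 were lower in each, and 29 of the 34 genes (85.3%) were called in at least 1 state, against 47.0% of all genes.

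**Figure D2:**
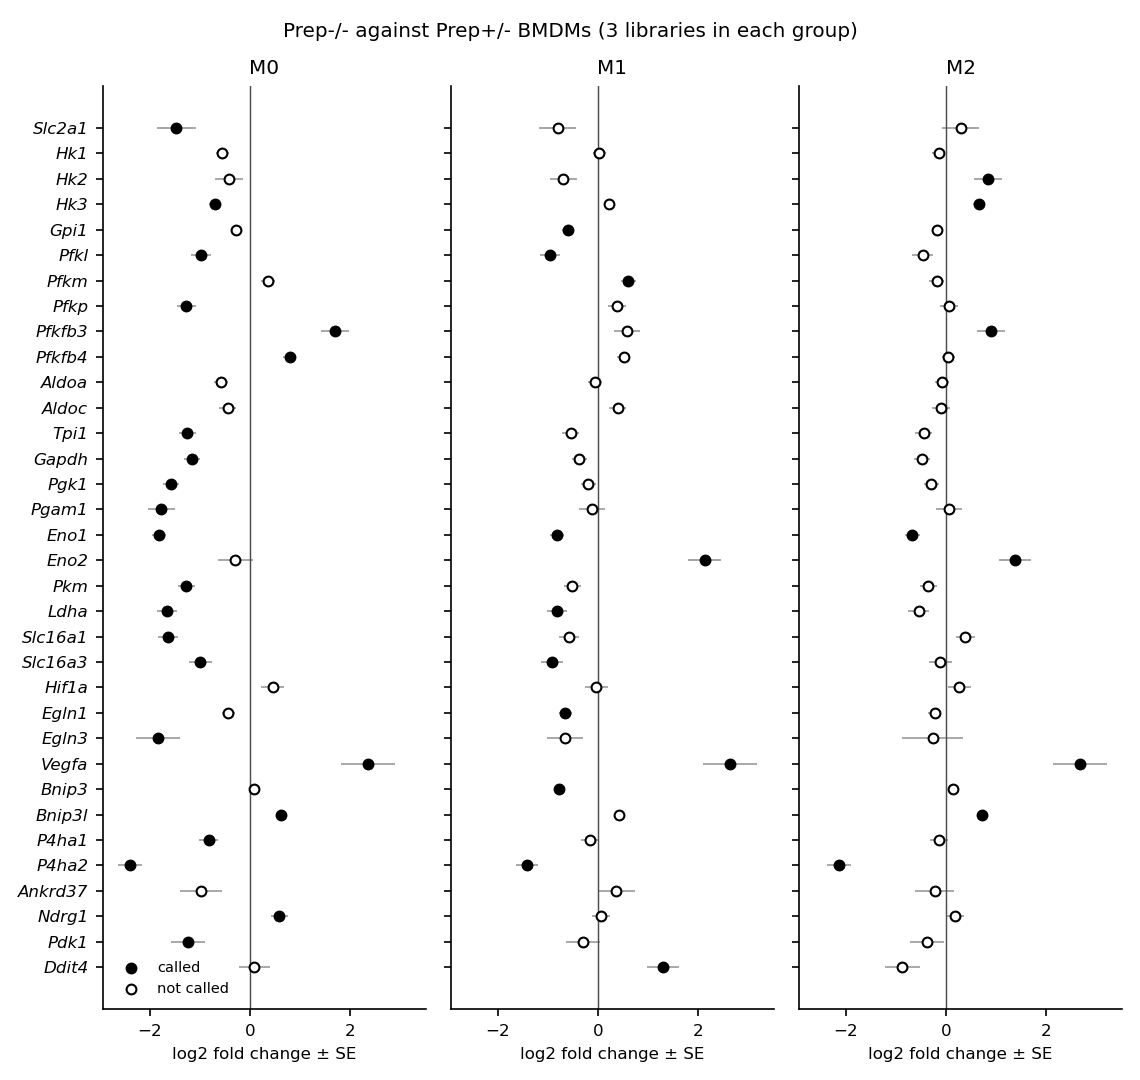
The horizontal axis gives the log2 fold change of Prep-/- against Prep+/- for the 34 tested genes in each state, bars are ± 1 SE, and filled points are DEGs. In M0 most glycolytic enzymes lie left of 0, between -1.82 and -1.16 for the 7 called from aldolase to lactate, whereas in M2 only Eno1 and Eno2 of these 10 are filled.

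Glucose enters macrophages through GLUT1 (Slc2a1) and is trapped as glucose 6-phosphate by hexokinases 1, 2 and 3. In M0 the Slc2a1 transcript was 2.76-fold lower and Hk3, the myeloid hexokinase, 1.63-fold lower in Prep-/- cells, whereas in M2 Hk3 was 1.56-fold higher. LPS raised all 4 genes in both genotypes. Slc2a1 had 696, 965 and 1209 normalised counts in Prep+/- M0, against 421, 282 and 338 in Prep-/- M0 (log2 fold change -1.47 ± 0.39, adjusted p = 0.00502, where ± is the SE). After LPS it had 4986, 5105 and 5002 counts in Prep+/-, against 2665, 3026 and 2997 in Prep-/- (-0.80 ± 0.37, adjusted p = 0.101). The genotypes did not overlap in either state, although the M1 difference did not pass the threshold, with a spread estimated over all 6 groups. In M2 the values were 939, 839 and 1400 in Prep+/-, against 745, 639 and 2494 in Prep-/-. The difference of 0.29 ± 0.37 there (adjusted p = 0.615) turned to -0.61 without Prep-/- M2 replicate 3, with an adjusted p of 0.0467. LPS raised Slc2a1 5.26-fold in Prep+/- and 8.36-fold in Prep-/-. IL-4 and IL-13 raised it in Prep-/- by 1.90 ± 0.39 on the log2 scale (1.0 without replicate 3 of that M2 group), while in Prep+/- the difference was 0.15 ± 0.37 (adjusted p = 0.829).

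Hk3 was the hexokinase with most normalised counts per kilobase in each of the 18 libraries. It had 6400, 5959 and 6632 normalised counts in Prep+/- M0, against 3331, 3925 and 4408 in Prep-/- M0, and the groups did not overlap (-0.70 ± 0.11, adjusted p = 8.91e-05). In M1 the values were 14456, 13519 and 14317 in Prep+/-, against 18034, 14788 and 16890 in Prep-/- (0.23 ± 0.11, adjusted p = 0.106), with all Prep-/- libraries above all Prep+/- libraries but no call. In M2 they were 9458, 9961 and 9724 in Prep+/-, against 15913, 13925 and 15745 in Prep-/-, and all 3 Prep-/- libraries were higher (0.65 ± 0.11, adjusted p = 4.78e-04). Hk3 thus lay below the heterozygotes in M0 and above them in M2, and the difference between these effects was 1.35 ± 0.16 (adjusted p = 1.21e-04). Relative to M0, M2 cells had 3.91-fold more Hk3 in Prep-/- and 1.53-fold more in Prep+/-. The latter was no longer called without Prep+/- M0 replicate 2, where it was 0.57 on the log2 scale. LPS raised Hk3 4.26-fold in Prep-/- and 2.23-fold in Prep+/-.

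Hk2, the hexokinase most tied to HIF-1, had 318, 402 and 452 normalised counts in Prep+/- M0, against 358, 272 and 253 in Prep-/- M0. With LPS it had 2315, 2289 and 2103 in Prep+/-, against 1222, 1545 and 1396 in Prep-/-, a rise of 5.72-fold in Prep+/- and 4.71-fold in Prep-/-. In M2 it had 381, 384 and 578 in Prep+/-, against 562, 516 and 1303 in Prep-/-. The genotypes overlapped in M0 and M2, and all Prep-/- M1 libraries lay below the Prep+/- ones at an adjusted p of 0.0564. The M2 increase (0.83 ± 0.28, adjusted p = 0.0381) fell to 0.27 without Prep-/- M2 replicate 3 and also lost its call without Prep+/- M2 replicate 1 or 2 and in a fit of the 2 groups alone. IL-4 and IL-13 raised Hk2 in Prep-/- by 1.43 ± 0.28 (0.87 without replicate 3), against 0.19 ± 0.28 in Prep+/- (adjusted p = 0.681).

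The housekeeping hexokinase Hk1 had 1888, 2075 and 2365 normalised counts in Prep+/- M0, against 1548, 1656 and 1122 in Prep-/- M0. With LPS it had 3675, 3017 and 3252 in Prep+/-, against 3437, 3484 and 3263 in Prep-/-, and with IL-4 and IL-13 1524, 1705 and 1593 in Prep+/-, against 1283, 1544 and 1508 in Prep-/-. Only in M0 did the genotypes not overlap, with Prep-/- lower by a fold too small for a call (-0.55 ± 0.13, adjusted p = 0.00288). LPS raised Hk1 2.35-fold in Prep-/- and 1.57-fold in Prep+/-, of which the latter lost its call without replicate 1 of either Prep+/- group (0.57 to 0.76 over the alternatives).

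The share of each isozyme was compared per length, as normalised counts per kilobase of the exons of a gene. Hk3 made up 82.0% ± 1.67 (SD, n = 3) of the hexokinases in Prep+/- M0 and 79.8% ± 4.83 in Prep-/- M0, and these overlapped. It was 81.8% ± 0.759 in Prep+/- M1 and 86.0% ± 1.78 in Prep-/- M1. In M2 it was 89.4% ± 0.515 in Prep+/- and 92.3% ± 1.54 in Prep-/-, the highest of the 6 groups. Among phosphofructokinases, which commit sugar to glycolysis, the liver type Pfkl led in M1 with 78.4% ± 3.40 in Prep+/- and 57.8% ± 3.05 in Prep-/-. The platelet type Pfkp led in M2 with 56.8% ± 3.57 and 63.6% ± 2.67. The muscle type Pfkm held 20.7% ± 2.90 in Prep+/- M0 and 41.4% ± 3.78 in Prep-/- M0, and the 3 libraries of each did not overlap. These shares depend on the length used. The exons of Pfkm, Pfkl and Pfkp span 8967, 12881 and 16462 bases, and their canonical transcripts 3997, 4101 and 4308 bases. Scaling by exons thus gives Pfkm a higher share than canonical transcripts would.

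**Figure D3:**
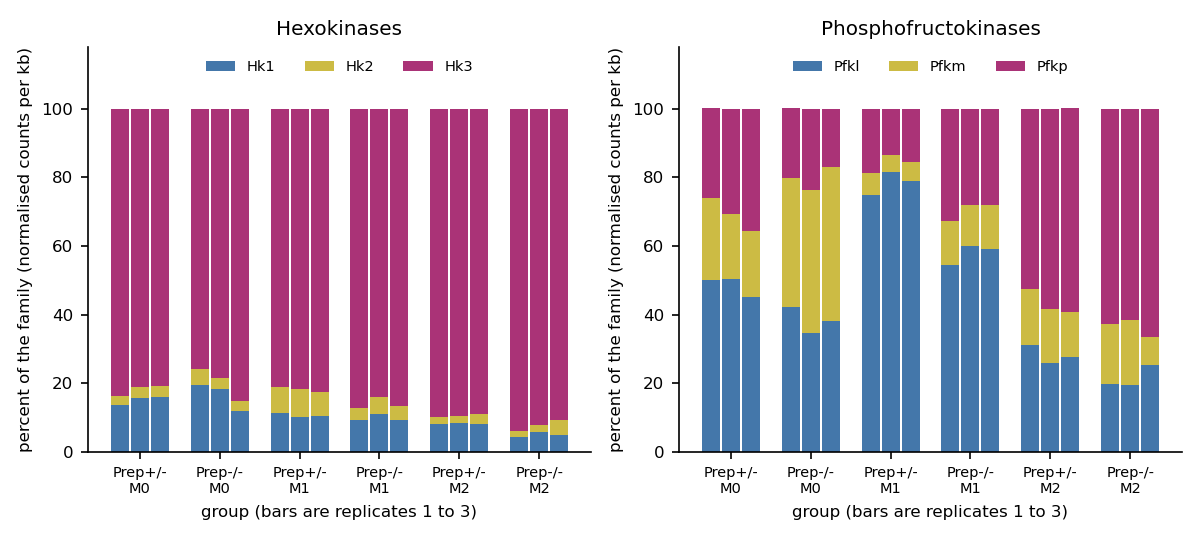
Each bar is a library, split into the percent of normalised counts per kilobase of exon that each isozyme took within its family. Hk3 fills most of every hexokinase bar, while the phosphofructokinase bars are led by Pfkl in M1 and by Pfkp in M2.

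At the phosphofructokinase step the isozymes moved differently. Pfkp was 2.41-fold lower in Prep-/- M0, Pfkl was 1.97-fold lower in M0 and 1.94-fold lower in M1, and Pfkfb3, whose product makes the activator fructose 2,6-bisphosphate, was 3.25-fold higher in M0. Pfkp had 1358, 1699 and 2102 normalised counts in Prep+/- M0, against 739, 788 and 612 in Prep-/- M0 (-1.27 ± 0.19, adjusted p = 5.23e-05). In M1 cells it had 1902, 1466 and 1577 in Prep+/-, against 2087, 2317 and 2040 in Prep-/- (0.38 ± 0.18, adjusted p = 0.115), and in M2 2427, 2758 and 3106 in Prep+/-, against 2410, 2433 and 3816 in Prep-/- (0.06 ± 0.18, adjusted p = 0.840). The Prep-/- libraries thus lay below the Prep+/- ones in M0, above them in M1 and on both sides of them in M2. LPS raised Pfkp 3.01-fold in Prep-/-, against a log2 difference of -0.06 ± 0.18 in Prep+/-, and the 2 responses differed by 1.65 ± 0.26 (adjusted p = 4.06e-04). With IL-4 and IL-13 it rose 4.05-fold in Prep-/- and 1.61-fold in Prep+/-, the latter not called without Prep+/- M0 replicate 1 or 2 or Prep+/- M2 replicate 3 (0.53 to 0.85 over the alternatives).

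Pfkfb3 had 224, 243 and 316 normalised counts in Prep+/- M0, against 1290, 798 and 460.0 in Prep-/- M0. With LPS the values were 5802, 4114 and 4894 in Prep+/-, against 9062, 6941 and 6099 in Prep-/-. In M2 they were 268, 250.3 and 357 in Prep+/-, against 544, 527 and 548 in Prep-/-. All Prep-/- libraries were above all Prep+/- libraries in each state, by 1.70 ± 0.28 in M0 (adjusted p = 1.26e-04), 0.58 ± 0.26 in M1 (adjusted p = 0.0937) and 0.89 ± 0.28 in M2 (adjusted p = 0.0269). The M2 call was lost without Prep+/- M2 replicate 1 or 2 or Prep-/- M2 replicate 1, with log2 fold changes of 0.76 to 1.04. LPS raised Pfkfb3 18.9-fold in Prep+/-, the largest rise of the 34 genes there, and 8.68-fold in Prep-/-. Pfkfb4, a second such enzyme, was 1.74-fold higher in Prep-/- M0 (1133 ± 194 against 652 ± 65.9 normalised counts, mean ± SD, n = 3).

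Among the remaining genes of this step, Pfkl had 2095 ± 64.3 normalised counts in Prep+/- M0 and 1064 ± 150.2 in Prep-/- M0, and 6419 ± 527 against 3310 ± 571 in M1. LPS raised it 3.06-fold and 3.11-fold in the 2 genotypes, and IL-4 and IL-13 lowered it 1.95-fold in Prep+/-. The M2 genotype difference of Pfkl, -0.47 ± 0.20 (adjusted p = 0.0975), became a call without Prep-/- M2 replicate 3, at -0.85 (adjusted p = 4.12e-04), and so did its change with IL-4 and IL-13 in Prep-/-, from -0.46 ± 0.20 to -0.84 (adjusted p = 2.88e-04). Pfkm fell in all 4 comparisons of M1 or M2 with M0, by 1.58-fold to 2.31-fold. It was 1.52-fold higher in Prep-/- M1, a call lost without Prep+/- M1 replicate 2 or Prep-/- M1 replicate 2 or 3 and with DESeq2 (0.55 to 0.68 on the log2 scale). Gpi1, which isomerizes glucose 6-phosphate, was 1.52-fold lower in Prep-/- M1, and this call was lost without Prep+/- M1 replicate 2 or Prep-/- M1 replicate 1.

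From aldolase to lactate, 7 of the 10 enzymes were lower in Prep-/- M0, 2 in M1 and 1 in M2. Of all genes, 17.2%, 10.2% and 9.82% were lower in these states. The median log2 fold changes of the 10 were -1.26, -0.28 and -0.33. Without Prep-/- M2 replicate 3, however, 5 of the 10 were lower in M2 (Tpi1, Gapdh, Eno1, Pkm and Ldha), against 13.4% of all genes. The median of the 10 there was -0.57. LPS raised 6 of the 10 in Prep+/- and 9 in Prep-/-, against 16.7% and 20.9% of all genes. Eno1, the main enolase, was lower in every state. It had 20148, 21152 and 22333 normalised counts in Prep+/- M0, against 6204, 5338 and 6472 in Prep-/- M0. The M1 values were 37244, 37576 and 36140 in Prep+/-, against 18447, 22544 and 21850 in Prep-/-. The M2 values were 16786, 17468 and 17961 in Prep+/-, against 8925, 9854 and 13978 in Prep-/-. No Prep-/- library reached a Prep+/- library of its state. The log2 fold changes were -1.82 ± 0.14, -0.82 ± 0.14 and -0.67 ± 0.14 (adjusted p = 3.72e-07, 5.45e-04 and 0.00236), and the M2 value was -0.55 and not called without Prep-/- M2 replicate 1 and -0.89 without replicate 3. Reads of Eno1 could be shared with Eno1b, a gene whose transcript is 99.5% identical over 75.7% of that of Eno1 and had a mean of 125 counts in the table.

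Phosphoglycerate kinase (Pgk1), which makes the first ATP of the pathway, was 2.99-fold lower in Prep-/- M0. It had 18794, 19869 and 20494 normalised counts in Prep+/- M0, against 5104, 6859 and 7794 in Prep-/- M0 (-1.58 ± 0.16, adjusted p = 1.61e-06). The M1 libraries had 34579, 34911 and 32001 in Prep+/-, against 29107, 29721 and 30100 in Prep-/- (-0.19 ± 0.15, adjusted p = 0.341). After IL-4 and IL-13 it had 11940, 12299 and 13305 in Prep+/-, against 8703, 8907 and 12906 in Prep-/- (-0.30 ± 0.15, adjusted p = 0.168). The separation was wide in M0, narrow in M1 and absent in M2, where Prep-/- replicate 3 lay inside the Prep+/- range and the difference without it was -0.51 (adjusted p = 0.00972), short of the fold threshold. Relative to M0, LPS raised Pgk1 4.50-fold in Prep-/- and 1.72-fold in Prep+/-. IL-4 and IL-13 lowered it 1.58-fold in Prep+/- and raised it 1.54-fold in Prep-/-. That rise was not called without Prep-/- M0 replicate 1 or Prep-/- M2 replicate 3 (0.42), nor in a fit of the 2 groups alone.

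Lactate dehydrogenase A (Ldha), whose promoter is shown above, was 3.16-fold lower in Prep-/- M0 and 1.76-fold lower in M1. The normalised counts were 25764, 27137 and 25911 in Prep+/- M0, against 7589, 6562 and 10828 in Prep-/- M0 (-1.66 ± 0.20, adjusted p = 1.11e-05). They were 53804, 59155 and 53927 in Prep+/-, against 26924, 33864 and 34141 in Prep-/- in M1 (-0.81 ± 0.20, adjusted p = 0.00562). In M2 they were 22272, 21491 and 22438 in Prep+/-, against 12620, 11563 and 21038 in Prep-/- (-0.55 ± 0.20, adjusted p = 0.0546). The genotypes did not overlap in any state. In M2, where same-numbered libraries deviated together, a fit with the replicate number as a block gave -0.60 (adjusted p = 0.0236), and the value without Prep-/- M2 replicate 3 was -0.87 (adjusted p = 0.00103). LPS raised Ldha 2.12-fold in Prep+/- and 3.80-fold in Prep-/-. IL-4 and IL-13 raised it 1.81-fold in Prep-/-, which was lost without replicate 3 of that M2 group (0.54) and in a fit of the 2 groups alone.

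Pyruvate kinase (Pkm), which makes the last ATP of the pathway, had 65113, 65375 and 66820 normalised counts in Prep+/- M0, against 22377, 24848 and 34727 in Prep-/- M0, a 2.41-fold reduction (-1.27 ± 0.17, adjusted p = 2.79e-05). In M1 it had 105349, 109430 and 108950 in Prep+/-, against 72039, 76040 and 78675 in Prep-/-, a reduction whose fold was too small for a call (-0.51 ± 0.17, adjusted p = 0.0287). In M2 the values were 46083, 44747 and 48652 in Prep+/-, against 30042, 30326 and 48055 in Prep-/- (-0.36 ± 0.17, adjusted p = 0.136). Prep-/- M2 replicate 3 again lay within the Prep+/- range, and without it the difference was -0.62 (adjusted p = 0.00418). LPS raised Pkm 1.64-fold in Prep+/- and 2.77-fold in Prep-/-.

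Gapdh, often used as a loading control, was 2.23-fold lower in Prep-/- M0. It had 2017, 1972 and 2071 normalised counts in Prep+/- M0, against 671, 1117 and 923 in Prep-/- M0 (-1.16 ± 0.16, adjusted p = 2.48e-05). In M1 the values were 3316, 3125 and 3286 in Prep+/-, against 2357, 2752 and 2415 in Prep-/-, and in M2 1528, 1450 and 1554 in Prep+/-, against 841, 1102 and 1285 in Prep-/-. Prep-/- libraries were below Prep+/- libraries in each state, by -0.37 ± 0.15 in M1 (adjusted p = 0.0713) and -0.49 ± 0.16 in M2 (adjusted p = 0.0309), where the fold was too small for a call. The M2 difference without Prep-/- M2 replicate 3 was -0.64 (adjusted p = 0.00654), which is a call. Gapdh was 1.61-fold higher after LPS in Prep+/- and 2.77-fold higher in Prep-/-. Per kilobase of exon, Gapdh had 282 ± 6.90 normalised counts in Prep+/- M0 (SD, n = 3), where Pgk1, the next enzyme of the pathway, had 8787 ± 383. Per kilobase of the canonical transcript these levels were 1422 and 10805. The annotation holds 163 genes with at least 90% identity to Gapdh over at least 50% of its transcript. How reads shared by them were counted is not given in the sources used here, so the Gapdh values are uncertain. Near-identical copies exist also for Aldoa, Eno1, Pgk1, Pkm and Ldha, between 2 and 7 for each.

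Eno2, the neuronal enolase, went the other way. It had 44.4, 45.9 and 77.2 normalised counts in Prep+/- M0, against 60.2, 24.8 and 52.7 in Prep-/- M0, which overlapped. After LPS it had 88.9, 69.0 and 75.7 in Prep+/-, against 495, 267 and 264 in Prep-/-, 4.38-fold higher (2.13 ± 0.33, adjusted p = 2.56e-04). In M2 the values were 70.4, 58.6 and 70.8 in Prep+/-, against 159, 127 and 230.3 in Prep-/-, 2.58-fold higher (1.37 ± 0.32, adjusted p = 0.00561). LPS raised Eno2 7.47-fold in Prep-/-, against a log2 difference of 0.48 ± 0.34 in Prep+/- (adjusted p = 0.252), and the 2 responses differed by 2.42 ± 0.47 (adjusted p = 0.00190). Per kilobase of exon, Eno2 had 56.5 ± 21.9 normalised counts in Prep-/- M1 (SD, n = 3), where Eno1 had 1821 ± 191.

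Aldoc, an aldolase best known from brain, fell with IL-4 and IL-13, 4.16-fold in Prep+/- and 3.29-fold in Prep-/-. It had 1058, 1102 and 1106 normalised counts in Prep+/- M0, against 613, 952 and 841 in Prep-/- M0. The M2 values were 261, 273 and 250.1 in Prep+/-, against 244, 254 and 233 in Prep-/-. In M1 cells it had 991, 868 and 793 in Prep+/-, against 830.5, 1457 and 1224 in Prep-/-. All 6 M2 libraries lay below all other libraries. Phosphoglycerate mutase Pgam1 was 3.42-fold lower and triose phosphate isomerase Tpi1 2.38-fold lower in Prep-/- M0, with means of 1560 ± 689 against 5339 ± 908 and 6207 ± 1540 against 14765 ± 66.7 normalised counts (± SD, n = 3). The M2 difference of Tpi1, -0.45 ± 0.17 (adjusted p = 0.0626), was -0.70 and called without Prep-/- M2 replicate 3 (adjusted p = 0.00192). LPS raised Pgam1 4.91-fold in Prep-/-. Aldoa had log2 differences of -0.57 ± 0.14 in M0, -0.06 ± 0.14 in M1 and -0.08 ± 0.14 in M2 between the genotypes, none past the fold threshold.

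**Figure D4:**
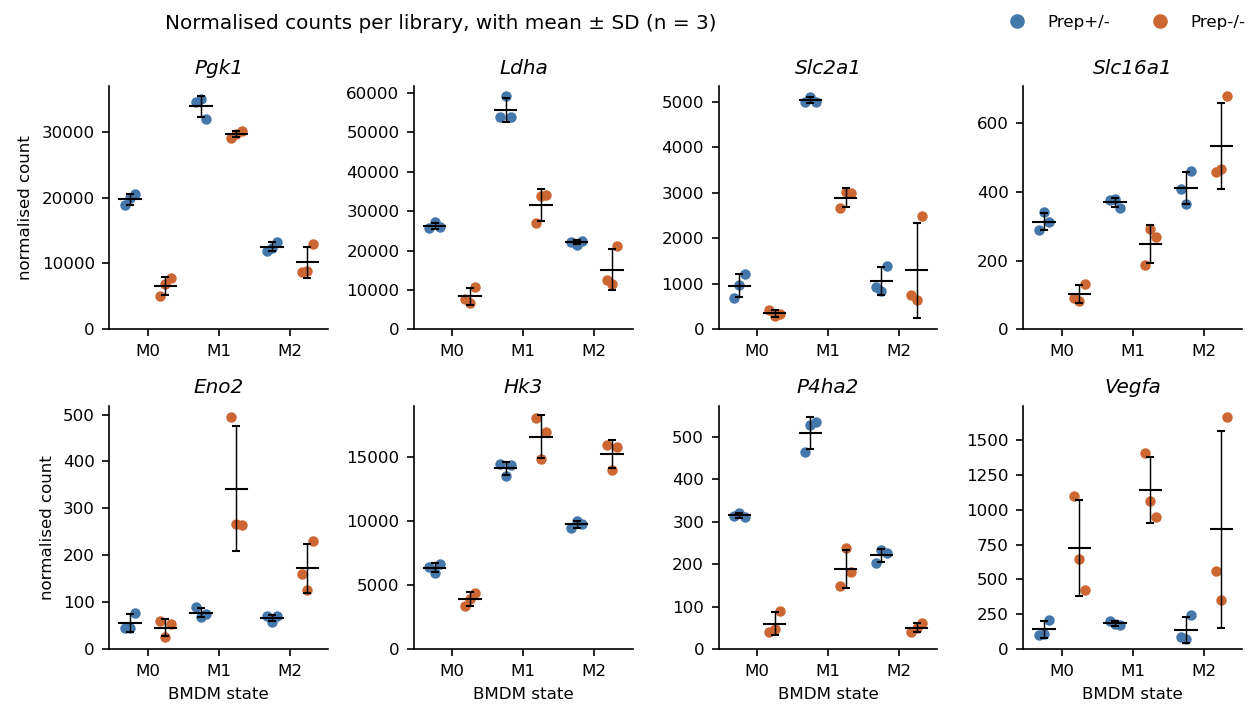
Points are the normalised counts of each library for 8 genes, horizontal lines are means and bars ± SD over 3 libraries, with a linear axis from 0. Pgk1, Ldha and P4ha2 lie lower in Prep-/- M0, Vegfa lies higher in Prep-/- in all 3 states, and 1 Prep-/- M2 library stands above the other two for Slc2a1 and Vegfa.

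Lactate leaves and enters cells through MCT1 (Slc16a1) and MCT4 (Slc16a3), of which MCT4 is the exporter linked to HIF-1. Both were lower in Prep-/- M0, Slc16a1 3.10-fold and Slc16a3 1.99-fold. Slc16a1 had 289, 341 and 312 normalised counts in Prep+/- M0, against 92.3, 81.5 and 131 in Prep-/- M0 (-1.63 ± 0.20, adjusted p = 1.24e-05). The M1 libraries had 376, 379.5 and 354 in Prep+/-, against 186, 291 and 270.3 in Prep-/- (-0.57 ± 0.20, adjusted p = 0.0319), and in M2 409, 366 and 461 in Prep+/-, against 457, 466 and 679 in Prep-/- (0.38 ± 0.19, adjusted p = 0.163). The groups were separate in M0 and M1 and overlapped in M2. IL-4 and IL-13 raised Slc16a1 5.26-fold in Prep-/-, against a log2 difference of 0.39 ± 0.19 in Prep+/- (adjusted p = 0.182), and the 2 responses differed by 2.01 ± 0.28 (adjusted p = 6.23e-04).

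Slc16a3 had 1453, 1927 and 2036 normalised counts in Prep+/- M0, against 1019, 708 and 995 in Prep-/- M0 (-0.99 ± 0.23, adjusted p = 0.00181). With LPS it had 11026, 13229 and 12223 in Prep+/-, against 5534, 6899 and 6922 in Prep-/- (-0.91 ± 0.22, adjusted p = 0.00526). In M2 cells it had 851, 750.1 and 904 in Prep+/-, against 550.4, 609 and 1151 in Prep-/- (-0.12 ± 0.23, adjusted p = 0.750). Prep-/- lay below Prep+/- in M0 and M1. In M2, replicates 1 and 2 of Prep-/- lay below all Prep+/- libraries and replicate 3 above them, and without replicate 3 the difference was -0.53 (adjusted p = 0.0309), which is not a call. LPS raised it 6.73-fold in Prep+/- and 7.11-fold in Prep-/-, while IL-4 and IL-13 lowered it 2.16-fold in Prep+/-. In Prep-/- the change with IL-4 and IL-13 was -0.23 ± 0.23 (adjusted p = 0.424), and -0.64 and called without that library (adjusted p = 0.00847).

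Of the oxygen-sensing genes, Hif1a itself was not a DEG between genotypes in any state. It had 949, 1183 and 1400 normalised counts in Prep+/- M0, against 2332, 1594 and 946 in Prep-/- M0 (0.46 ± 0.23, adjusted p = 0.111). With LPS it had 5457, 4755 and 4772 in Prep+/-, against 5113, 5124 and 4418 in Prep-/- (-0.03 ± 0.23, adjusted p = 0.925). The M2 libraries had 1025, 1015 and 1187 in Prep+/-, against 1146, 1123 and 1590 in Prep-/- (0.26 ± 0.23, adjusted p = 0.457). The genotypes overlapped in all 3 states, and LPS raised Hif1a 4.24-fold in Prep+/- and 3.01-fold in Prep-/-. These are transcript levels, and HIF-1α protein was not measured in these libraries. Egln3, the prolyl hydroxylase that HIF-1 itself induces, was 3.57-fold lower in Prep-/- M0. It had 29.9, 57.6 and 71.3 normalised counts in Prep+/- M0, against 20.1, 3.54 and 21.5 in Prep-/- M0 (-1.84 ± 0.44, adjusted p = 0.00263), and the groups did not overlap. In M1 it had 295, 193 and 228 in Prep+/-, against 139, 191 and 126 in Prep-/-, and in M2 6.31, 7.10 and 13.2 in Prep+/-, against 5.32, 8.46 and 8.12 in Prep-/-, where low counts limit the precision. Egln3 was 4.48-fold higher after LPS in Prep+/- and 10.2-fold higher in Prep-/-, the largest rise of the set in that genotype. It was 5.95-fold lower after IL-4 and IL-13 in Prep+/-. Egln1, the main oxygen sensor, was 1.57-fold lower in Prep-/- M1 (1199 ± 75.0 against 1879 ± 19.1 normalised counts, mean ± SD, n = 3).

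The other HIF-1 targets did not move as a block: in Prep-/- M0, 3 of the 9 tested were lower (P4ha1, P4ha2 and Pdk1) and 3 higher (Vegfa, Bnip3l and Ndrg1). Of all genes, 17.2% were lower and 15.4% higher there. Vegfa, the endothelial growth factor, was the most increased of the 34 genes in each state. It had 104, 109 and 209 normalised counts in Prep+/- M0, against 1100, 645 and 426 in Prep-/- M0, 5.13-fold higher (2.36 ± 0.54, adjusted p = 0.00181). After LPS it had 204, 178 and 171 in Prep+/-, against 1411, 1063 and 951 in Prep-/-, 6.19-fold higher (2.63 ± 0.54, adjusted p = 0.00180). In M2 it had 87.5, 72.8 and 242 in Prep+/-, against 560.0, 351 and 1665 in Prep-/-, 6.43-fold higher (2.68 ± 0.54, adjusted p = 0.00181). All 9 Prep-/- libraries were above the highest of the 9 Prep+/- libraries. Without Prep-/- M2 replicate 3 the M2 value was 1.77 and still called. Stimulation did not change Vegfa past the threshold in either genotype, with log2 differences of 0.39 ± 0.54 and 0.66 ± 0.50 for LPS and -0.08 ± 0.55 and 0.25 ± 0.50 for IL-4 and IL-13 in Prep+/- and Prep-/-.

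P4ha2, a subunit of the collagen prolyl 4-hydroxylase, was the most reduced gene of the set in each state. It had 313, 322 and 312 normalised counts in Prep+/- M0, against 41.2, 47.8 and 90.8 in Prep-/- M0, 5.26-fold lower (-2.40 ± 0.24, adjusted p = 1.77e-06). In M1 cells it had 465, 528 and 535 in Prep+/-, against 149.6, 238 and 182 in Prep-/-, 2.68-fold lower (-1.42 ± 0.22, adjusted p = 2.86e-04). After IL-4 and IL-13 it had 204, 233 and 227 in Prep+/-, against 40.5, 48.7 and 61.9 in Prep-/-, 4.38-fold lower (-2.13 ± 0.24, adjusted p = 2.28e-05). The genotypes were far apart in each state. LPS raised P4ha2 in both genotypes, 1.61-fold in Prep+/- and 3.17-fold in Prep-/-. P4ha1, which encodes the alternative subunit, was 1.76-fold lower in Prep-/- M0, with log2 differences of -0.15 ± 0.18 in M1 and -0.15 ± 0.18 in M2. The M2 value without Prep-/- M2 replicate 3 was -0.50 (adjusted p = 0.00852), short of the fold threshold.

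Bnip3, a mitophagy receptor and HIF-1 target, was called between genotypes in M1 and not in M0 or M2. It had 862, 929.5 and 963 normalised counts in Prep+/- M0, against 1001, 900.0 and 1005 in Prep-/- M0, which overlapped. The M1 libraries had 3459, 4277 and 4118 in Prep+/-, against 2102, 2381 and 2470 in Prep-/-, 1.70-fold lower in Prep-/- (-0.77 ± 0.10, adjusted p = 8.42e-05). In M2 cells it had 722, 627 and 676 in Prep+/-, against 773, 729.9 and 716 in Prep-/-, which overlapped. LPS raised Bnip3 4.30-fold in Prep+/- and 2.39-fold in Prep-/-, and the difference of -0.85 ± 0.14 between the genotypes' responses passed the test (adjusted p = 6.13e-04). Its relative Bnip3l, known from clearance of mitochondria in red cell precursors, was instead 1.54-fold higher in Prep-/- M0 and 1.64-fold higher in M2. The M0 call was lost without Prep-/- M0 replicate 1 or 2 (0.56 to 0.71 on the log2 scale over the alternatives).

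Pyruvate dehydrogenase kinase 1 (Pdk1), which keeps pyruvate out of mitochondria, was 2.35-fold lower in Prep-/- M0. It had 1980, 2129 and 2282 normalised counts in Prep+/- M0, against 841, 966 and 911 in Prep-/- M0, without overlap (-1.23 ± 0.34, adjusted p = 0.00758). In M1 it had 2135, 2014 and 1885 in Prep+/-, against 1287, 1988 and 1644 in Prep-/-, and in M2 857, 909 and 1105 in Prep+/-, against 402, 379 and 1423 in Prep-/-. Replicate 3 was more than 3 times the other Prep-/- M2 libraries, and without it Prep-/- M2 was lower by -1.29 on the log2 scale (adjusted p = 2.63e-05), against -0.38 ± 0.34 with it (adjusted p = 0.457). Likewise the change of Pdk1 with IL-4 and IL-13 in Prep-/- was -0.30 ± 0.34 with that library and -1.21 and called without it (adjusted p = 1.84e-05). IL-4 and IL-13 lowered Pdk1 2.23-fold in Prep+/-, a call lost without Prep+/- M0 replicate 2 or 3 or Prep+/- M2 replicate 1 or 2. The rise with LPS in Prep-/- (0.86 ± 0.34, adjusted p = 0.0426) was 0.84 with the replicate number as a block (adjusted p = 0.0540) and was lost without any Prep-/- M0 library or Prep-/- M1 replicate 2 or 3.

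Ankrd37, a small HIF-1 target, was not called between genotypes in the full set of libraries. It had 83.0, 101 and 111 normalised counts in Prep+/- M0, against 55.2, 36.3 and 59.6 in Prep-/- M0, which did not overlap (-0.97 ± 0.42, adjusted p = 0.0665). After LPS it had 267, 328 and 289 in Prep+/-, against 363, 407 and 370.4 in Prep-/- (0.37 ± 0.37, adjusted p = 0.461). The M2 libraries had 139, 103 and 158 in Prep+/-, against 56.4, 51.8 and 230.3 in Prep-/-, where replicate 3 alone exceeded every Prep+/- library. Without it, Ankrd37 was lower in Prep-/- M2 by -1.30 (adjusted p = 4.61e-04), against -0.23 ± 0.39 with it (adjusted p = 0.709). LPS raised Ankrd37 2.99-fold in Prep+/- and 7.55-fold in Prep-/-. The 2.25-fold rise with IL-4 and IL-13 in Prep-/- was 0.11 on the log2 scale without that library, and was also lost without Prep-/- M0 replicate 1 or 2.

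Ddit4, an inhibitor of mTORC1 signalling, was 2.45-fold higher in Prep-/- M1. It had 91.6, 71.0 and 62.8 normalised counts in Prep+/- M0, against 95.4, 77.1 and 66.4 in Prep-/- M0. The M1 values were 68.4, 69.0 and 47.5 in Prep+/-, against 144, 208 and 101 in Prep-/-. The M2 values were 66.8, 50.6 and 75.5 in Prep+/-, against 18.1, 51.8 and 35.5 in Prep-/-. Only in M1 were the groups separate (1.29 ± 0.32, adjusted p = 0.00572). In Prep-/- cells Ddit4 rose 1.90-fold with LPS and fell 2.26-fold with IL-4 and IL-13. The rise was lost without Prep-/- M0 replicate 3 or Prep-/- M1 replicate 2, and the fall in a fit of the 2 groups alone. Ndrg1, a stress-responsive gene, fell in all 4 comparisons of M1 or M2 with M0, by 1.72-fold to 2.82-fold. Its 1.51-fold increase in Prep-/- M0 lay at the fold threshold and was lost without Prep+/- M0 replicate 2 or 3 or Prep-/- M0 replicate 3. Adm, not tested, had between 11.9 and 24.4 normalised counts in Prep+/- M1, 3.20 to 7.70 in Prep-/- M1 and at most 4.02 in any M0 or M2 library.

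In Prep+/- cells most genes called with LPS rose and most genes called with IL-4 and IL-13 fell. Of the genes called with IL-4 and IL-13, only Aldoc, Pdk1 and Pfkp were not also called with LPS. Egln3, Pfkl, Pgk1, Slc16a3 and Tpi1 rose with LPS and fell with IL-4 and IL-13. Ndrg1 and Pfkm fell with both stimuli, and Hk3 rose with both. LPS raised 20 of the 34 genes and lowered 2 (58.8% and 5.88%, against 16.7% and 20.9% of all genes), with a median log2 fold change of 0.70 where all genes had -0.03. IL-4 and IL-13 raised 2 (Hk3 and Pfkp) and lowered 9 (5.88% and 26.5%, against 6.09% and 6.77% of all genes), with a median of -0.27 where all genes had -0.01. In Prep-/- cells LPS raised 26 and lowered 2 (76.5% and 5.88%, against 20.9% and 21.0% of all genes), with a median of 1.59 where all genes had 0.00. IL-4 and IL-13 raised 11 and lowered 4 there (32.4% and 11.8%, against 14.7% and 15.5% of all genes), with a median of 0.10 where all genes had -0.02. Without Prep-/- M2 replicate 3 this last comparison gave 8 raised and 7 lowered (against 12.1% and 14.1% of all genes), with a median of -0.09. M1 and M2 are both compared with the same 3 M0 libraries in each genotype.

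The difference between the genotypes' responses was tested directly. For LPS, 13 of the 34 genes had a larger value in Prep-/- and 2 a smaller one (38.2% and 5.88%, against 12.0% and 9.15% of all genes), and 9 of the 13 were enzymes from aldolase to lactate. For IL-4 and IL-13, 11 had a larger value in Prep-/- and 1 a smaller one (32.4% and 2.94%, against 4.53% and 4.13% of all genes), 7 of them from aldolase to lactate. The 6 members with a larger value under both stimuli that kept both calls when any library was left out were Hk3, Pfkp, Pgk1, Pgam1, Eno1 and Slc16a1. Both differences rest on the same M0 libraries, in which these genes were lower in Prep-/-. The values are signed log2 changes against M0, so a smaller fall also counts as a larger value. Leaving out 1 library left between 8 and 14 genes with a larger value in Prep-/- for LPS and between 6 and 14 for IL-4 and IL-13. The lowest LPS count came without Prep+/- M1 replicate 3 or Prep-/- M1 replicate 2. The lowest IL-4 and IL-13 count came without replicate 2 or 3 of Prep+/- M0 or replicate 1 or 2 of Prep+/- M2, and without Prep-/- M2 replicate 3 it was 7.

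**Figure D5:**
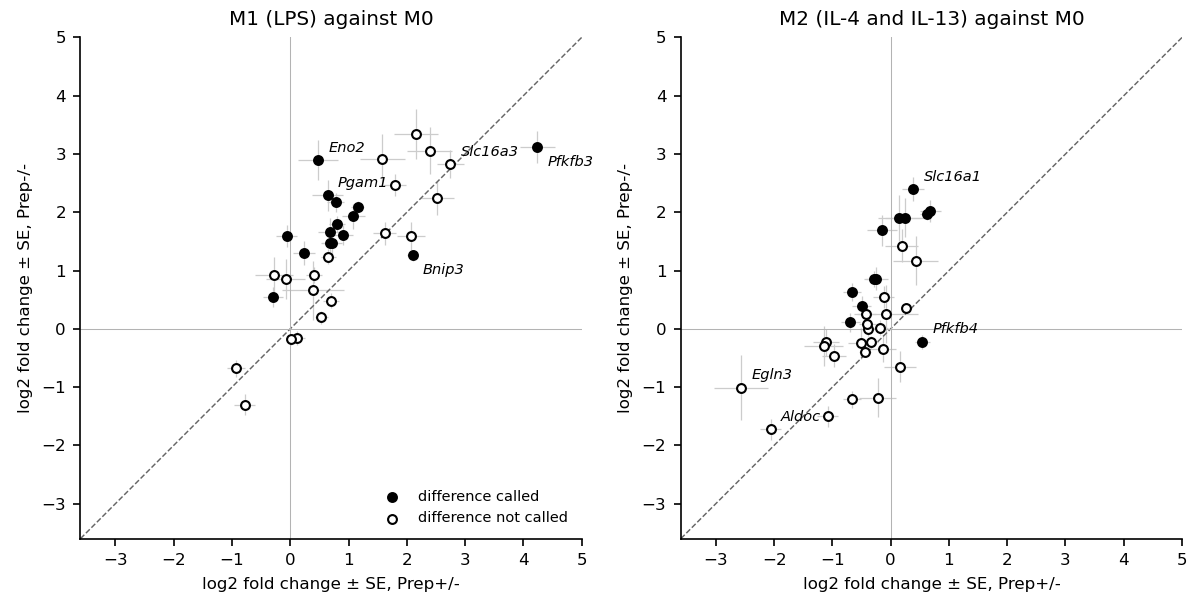
Each point is a gene, with its log2 fold change against M0 (± SE) in Prep+/- on the horizontal and in Prep-/- on the vertical axis; the dashed line marks equal responses and filled points are genes whose responses differed past the threshold. Most filled points lie above the line in both panels, while Bnip3 and Pfkfb3 (LPS) and Pfkfb4 (IL-4 and IL-13) lie below it.

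Other genes of the pathways were counted from lists drawn up by pathway, also with earlier results of these data known. Of 13 tested glycolysis genes outside the set, 2 were lower in Prep-/- M0 (Tigar, a fructose 2,6-bisphosphatase, 2.37-fold, and Pfkfb1 2.23-fold) and 2 higher (Slc2a6 1.64-fold and Ldhb 1.52-fold), where 17.2% of all genes were lower and 15.4% higher. The second glucose transporter Slc2a3 was 1.89-fold higher in Prep-/- M1 and 1.54-fold lower in M2. LPS lowered it 1.90-fold in Prep+/-, where it had raised Slc2a1. Of 12 tested regulators of the HIF pathway, Epas1, which encodes HIF-2α, was 3.28-fold lower in Prep-/- M0 (-1.71 ± 0.39, adjusted p = 0.00180) and was the only DEG of that list there. In M1 it was 3.80-fold higher in Prep-/- (1.93 ± 0.73, adjusted p = 0.0498). LPS lowered Epas1 33.6-fold in Prep+/-, while Hif1a rose.

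Of 21 tested further HIF-1 targets, 10 were lower and 2 higher in Prep-/- M0 (against 17.2% and 15.4% of all genes), with a median log2 fold change of -0.39 (0.02 for all genes). The lower ones included Gbe1, the glycogen branching enzyme (2.27-fold), and Ero1a, an oxidase of the endoplasmic reticulum (1.85-fold), and the higher ones were Cxcr4, a chemokine receptor (3.34-fold), and Angptl4 (2.14-fold). In M1, 5 were lower and 2 higher (against 10.2% and 12.3% of all genes). In M2, 2 were lower (Fam162a and Mif) and 4 higher (against 9.82% and 6.37% of all genes), among them Nampt (1.58-fold) and Kdm3a (1.72-fold). LPS raised 8 and lowered 4 of the 21 in Prep+/- (16.7% and 20.9% of all genes), and raised 14 and lowered 5 in Prep-/- (20.9% and 21.0% of all genes). The strongest rise with IL-4 and IL-13 was that of Bhlhe40, a repressor of transcription, 12.9-fold in Prep+/- and 41.5-fold in Prep-/-.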

How the data were processed

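Total RNA of BMDMs had been sequenced from 18 stranded poly(A) libraries, as paired ends. The authors trimmed reads with Trimmomatic 0.36, aligned them to GRCm39 with HISAT2 2.2.1.0, quantified genes with StringTie and deposited raw counts per gene; the annotation release and the treatment of strand and of reads with several alignments are not given in the sources used here.

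Deposited counts were tested with edgeR 4.0.16 (R 4.3.3): filterByExpr over the 6 groups, TMM scaling (factors 0.818 to 1.2), 1 coefficient per group over all 18 libraries, glmQLFit and glmQLFTest, and Benjamini-Hochberg adjustment over the 12021 genes tested in each of 9 comparisons. A DEG needed a fold change above 1.5 at an adjusted p below 0.05. The SE was the absolute log2 fold change divided by the square root of F. The study itself used DESeq2, which was run here as an alternative (1.42.0). The test was checked on simulated counts. Totals of 19068237 to 22598279 limit the precision of genes with few counts, such as Egln3 and Adm.

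The members and lists were chosen with earlier results of these data known. Every library is given for 14 key genes and for those leading a comparison (the 4 DEGs with the largest fold change in a knockout comparison, the 3 largest in a polarization comparison, or the 3 with the smallest adjusted p in a difference of responses); other members are given by means or folds, and at most 2 DEGs per direction are named from each list. Lengths were exon unions of GENCODE M39. Near-identical copies were found with blastn 2.17.0. The lengths of canonical transcripts and the promoters shown were added after the values were seen.

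Replicate numbers come from the labels, which do not say what they mark. Deviations from the group means of same-numbered libraries correlated above 0.1 in every pair only for the genotypes in M2 (r = 0.249, 0.255 and 0.462) and for M1 against M0 in Prep-/- (0.201, 0.169 and 0.259), and blocked values are given there. Other alternatives were size factors of the DESeq2 type, no filter, only the libraries compared, no fold minimum and leaving out each library.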

Additional observations from a re-analysis of the deposited data

Results flagged for a closer look

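The effect of Prep loss differed between states for 15 of the 34 genes between M1 and M0 and for 12 between M2 and M0, by the test of the difference itself (edgeR's quasi-likelihood test, adjusted p under 0.05 and a ratio of fold changes over 1.5). Values are log2 differences, with a positive value where Prep-/- stood higher relative to Prep+/- than it did in M0. For M1 against M0 the enzymes gave 1.39 for Pgk1, 1.65 for Pgam1, 1.0 for Eno1, 2.42 for Eno2, 0.79 for Gapdh, 0.84 for Aldoc, 0.75 for Pkm, 0.84 for Ldha and 0.71 for Tpi1. Further up the pathway, Pfkp gave 1.65 and Hk3 0.94. The lactate transporter Slc16a1 gave 1.06. P4ha2 gave 0.97. The 2 negative values were -0.85 for Bnip3 and -1.12 for Pfkfb3.

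For M2 against M0 the enzymes gave 1.28 for Pgk1, 1.84 for Pgam1, 1.15 for Eno1, 1.66 for Eno2, 0.90 for Pkm, 1.11 for Ldha and 0.80 for Tpi1. Hk3 gave 1.35, Pfkp 1.33, Slc16a1 2.01 and Slc2a1 1.75, and Pfkfb4 gave -0.76. Without Prep-/- M2 replicate 3 the values of Slc2a1 (0.85), Tpi1 (0.55), Eno2 (1.40) and Pkm (0.64) were no longer called. These 4 genes also lost their call without other libraries, with adjusted p of up to 0.129, 0.127, 0.122 and 0.100 over the alternatives. Ldha lost its call without Prep+/- M0 replicate 2 or 3 or Prep+/- M2 replicate 1 or 2 and with only the libraries compared (0.79 to 1.34 over the alternatives, adjusted p of at most 0.0730). Between M1 and M0, the calls of Tpi1, Ldha, Pkm, P4ha2, Pfkfb3 and Aldoc were each lost when at least 2 of the 12 libraries were left out in turn, with adjusted p of at most 0.0840, 0.0807, 0.0770, 0.104, 0.121 and 0.0579 over all alternatives.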

How the results depend on the processing

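Over the alternatives to the test, scaling, filter, libraries and replicates, 1757 values were recomputed for comparisons in which a member was called by the main test. Comparisons without such a call were left out, so calls gained and reversals among them are not counted. Of the 1757 values, 1616 kept their call, 141 lost it and 0 reversed direction. Of the lost calls 124 came from leaving out 1 library. Leaving out 1 library moved the DEGs lower in Prep-/- M2 between 1 and 10, those higher in M2 against M0 in Prep+/- between 0 and 2, and those lower in M2 against M0 in Prep-/- between 4 and 7. For the signed difference of the effect of Prep loss between M1 and M0, it moved the positive calls between 8 and 14 and the negative ones between 1 and 3. Between M2 and M0 the positive calls were between 6 and 14 and the negative ones between 1 and 2. A positive difference can also be a weaker reduction. With no fold minimum, 4 genes were higher in M2 against M0 in Prep+/-. With only the libraries compared in the fit, 1 gene had a negative difference between M1 and M0 and 6 a positive one between M2 and M0. The cause of these changes was not tested, beyond the fewer libraries or the wider rule that made them.

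Scaled by the longest transcript, the share of Hk3 was 74.6, 76.9 and 84.9% in Prep+/- M0, M1 and M2 and 72.1, 80.9 and 89.6% in Prep-/- M0, M1 and M2, and that of Pfkl was 25.7% in Prep+/- M2. Scaled by the canonical transcript, Hk3 took 78.4, 80.5 and 87.5% in Prep+/- M0, M1 and M2 and 84.0% in Prep-/- M1. In Prep+/- M0, Gapdh then had 504 (longest) or 1422 (canonical) and Pgk1 10805 (both) normalised counts per kilobase.

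With the replicate number as a block, Ldha in M2 (-0.60) became a DEG and Pdk1 in M1 against M0 in Prep-/- (0.84) stopped being one. In these comparisons the deviations of same-numbered libraries correlated, which does not show that the numbers paired the libraries. In the other comparisons the block ended the call of Ndrg1 in M0 and no other call of a member.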

Other observations

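Of 11 tested genes that act where pyruvate enters mitochondria, 2 were higher in Prep-/- M0 (against 15.4% of all genes), the mitochondrial pyruvate carrier subunit Mpc1 (1.66-fold, adjusted p = 3.97e-05) and the pyruvate dehydrogenase kinase Pdk2 (2.36-fold, adjusted p = 4.44e-04), and the median log2 fold change of the 11 was -0.09. Mpc1 was also 1.58-fold higher in Prep-/- M2 and Pdk2 2.23-fold higher in M1, where the phosphatase gene Pdp2 was 2.03-fold higher (of all genes, 6.37% were higher in M2 and 12.3% in M1). Pdk2 thus stood higher in Prep-/- M0 where Pdk1 stood lower. The 9 genes of the pentose phosphate pathway, which branches from glucose 6-phosphate, had median log2 fold changes of -0.17 in M0, -0.04 in M1 and -0.08 in M2 between the genotypes, and 1 of them, Shpk, was called, 1.58-fold higher in Prep-/- M1.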
